A study of Mus musculus with 4 samples.

Results

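The mouse microRNAs (miRNAs) from miR-680 to miR-719, together with miR-762, were examined in normal liver and in liver tumours. They were chosen by name alone, as every mouse probe whose number after miR- falls in that run, whatever its letter or arm, plus miR-762; the rule uses no measured value, but the set was proposed with earlier results of these data known. It found 38 of the 566 mouse miRNA probes, in a table of 618 probes. Total RNA came from 2 samples of normal liver and 2 samples of liver tumour, each counted with the nCounter miRNA Expression Assay, in which a tag is ligated to each miRNA and colour-coded probes are counted one by one. Per the labels, female NF2fl/fl mice, whose Nf2 gene is floxed, received PBS or AAV2/8-Cre, a liver-directed virus that deletes Nf2 in hepatocytes, and livers were inspected 50 weeks later. All groups thus carry the floxed allele. The labels state 3 mice and do not say how they divide, give no age, and tie neither the normal samples to the PBS mice nor each sample to a mouse of its own. The p-values therefore cover the spread between these samples only, which may be technical.

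A miRNA is cut from a hairpin precursor by Drosha and Dicer and guides Argonaute to messenger RNAs through its seed, bases 2 to 8 from its 5′ end. Most miRNAs in this run of numbers were added to the mouse catalogue together, from early small RNA sequencing, and many have little independent support as Dicer products. Some are known to overlap other transcripts: miR-712 comes from the precursor of ribosomal RNA, and miR-702 from a short intron that is spliced rather than cut by Drosha. A few have studied roles in mice, among them miR-708, which belongs to the miR-28 seed family, miR-709, a nuclear miRNA that restrains processing of the miR-15a/16-1 transcript, and miR-690, carried in vesicles of macrophages. The counting question is therefore which of these probes carry signal in liver at all, and which of those differ between normal liver and tumour.

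Sequences from RefSeq (build GRCm38.p6) were found for 30 of the 38 members, 25 of them by exact name and the other 5 only as separate arms that the probe name does not distinguish. No entry was used for miR-684, miR-689, miR-694, miR-696, miR-709, miR-712, miR-714 and miR-715. The mature sequences below belong to members described further on, with the seed in capitals. They are shown so that the seeds can be compared: no seed recurs among the 35 mature member sequences.
miR-691: aUUCCUGAagagaggcagaaaa
miR-762: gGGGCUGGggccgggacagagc
miR-690: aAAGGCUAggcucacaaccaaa
miR-710: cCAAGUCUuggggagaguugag
miR-683: cCUGCUGUaagcuguguccuc
miR-708-5p: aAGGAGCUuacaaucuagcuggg
MiR-691 lies at chr16:74342005-74342026 on the minus strand, inside the span of Robo2, and miR-762 at chr7:127708534-127708555 on the plus strand, inside the span of Bcl7c. MiR-690 lies at chr16:28599940-28599961 on the minus strand, inside the span of Fgf12, and miR-710 at chr8:64514401-64514422 on the minus strand, outside any RefSeq gene span. MiR-683 has 2 loci, chr13:50544644-50544664 and chr13:50600990-50601010, both on the minus strand and both outside gene spans. The gene table used here gives spans without exons or strand, so intron and exon were not told apart. Over all 34 member loci, 26 lay inside the span of another gene.

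The precursors of the probes with the highest and most contrasting results differ in makeup. Their hairpins are shown with the mature miRNA in capitals.
Mir691 hairpin: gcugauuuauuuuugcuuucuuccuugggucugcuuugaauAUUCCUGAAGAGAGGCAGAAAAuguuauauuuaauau
Mir762 hairpin: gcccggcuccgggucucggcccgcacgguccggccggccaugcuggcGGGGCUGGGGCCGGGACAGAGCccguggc
The Mir762 hairpin folded at -54.8 kcal/mol over 76 bases and the Mir691 hairpin at -15.6 kcal/mol over 78 bases (RNAfold minimum free energy). Per base these are -0.721 and -0.20 kcal/mol. Over the 30 member hairpins the median was -0.339 kcal/mol per base, against -0.406 over 1005 mouse hairpins, and 23 of the 30 folded more weakly per base than that wider median. The member hairpins are also longer in the catalogue, with a median of 109 bases against 79. Of 35 mature member sequences 7 began with U, the base that Argonaute favours at the 5′ end, against 40.9% of 1679 mature mouse miRNAs. These shares are descriptions, with no test.

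Recovered counts over mouse miRNA probes totalled 68260 and 62054 in normal liver against 239727 and 123818 in tumour. The authors' deposited values are counts times 1 factor per sample, 2.0856 and 2.2962 in normal liver against 0.395 and 0.9051 in tumour, so that an equal count becomes a lower value in a tumour. The hepatocyte miR-122 had 11760 to 31635 counts, the mark of liver tissue in all 4 samples. Most summed marker lists differed between the groups without overlap, the leukocyte sum being the exception. The summed epithelial markers miR-200a, miR-200b and miR-429 took 0.104% and 0.124% of counts in normal liver against 1.35% and 1.11% in tumour, and the summed mesenchymal markers miR-199a-3p, miR-199a-5p and miR-214 took 0.239% and 0.229% against 1.55% and 0.729%. Within the mesenchymal list miR-214, with 9 to 77 counts, overlapped between the groups (0.0264% and 0.0145% against 0.0321% and 0.0202%). The summed hepatocyte markers miR-122, miR-192 and miR-194 took 20.5% and 23.2% against 14.8% and 16.3%. Of the other lists, summed leukocyte markers took 0.671% and 0.948% against 0.762% and 0.617%, within which miR-155 took 0.412% and 0.562% against 0.214% and 0.267% and miR-223 0.0791% and 0.126% against 0.234% and 0.186%. Summed erythroid markers took 1.07% and 0.898% against 1.77% and 1.60%, and endothelial miR-126-3p 3.36% and 2.85% against 3.83% and 3.45%. No marker list was at 0, and in bulk tissue fewer cells of a type and less RNA per cell cannot be told apart.

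Only miR-691, miR-714 and miR-762 exceeded the negative controls in all 4 samples, out of 38 members. A probe was counted as above the negative controls where its count exceeded the mean plus 2 SD of the 6 negative controls of the same sample, that is 18.3 and 11.2 counts in normal liver against 17.6 and 14.9 in tumour. Another 9 members passed in 1 to 3 samples, and 26 passed in none. MiR-690 and miR-710 passed in both normal livers, so 5 of 38 members passed in both samples of a group, or 13.2%, against 38.9% of all mouse miRNA probes. The 33 probes for miRNAs of mouse herpesviruses, sequences that liver without these viruses does not hold, gave 5 of 33, or 15.2%. These shares are descriptions and were not tested against each other. Without liver tumour replicate 2, 5 members passed in all samples left and 10 in the tumour left. Without normal liver replicate 1, 10 passed in the normal liver left.

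**Figure D1:**
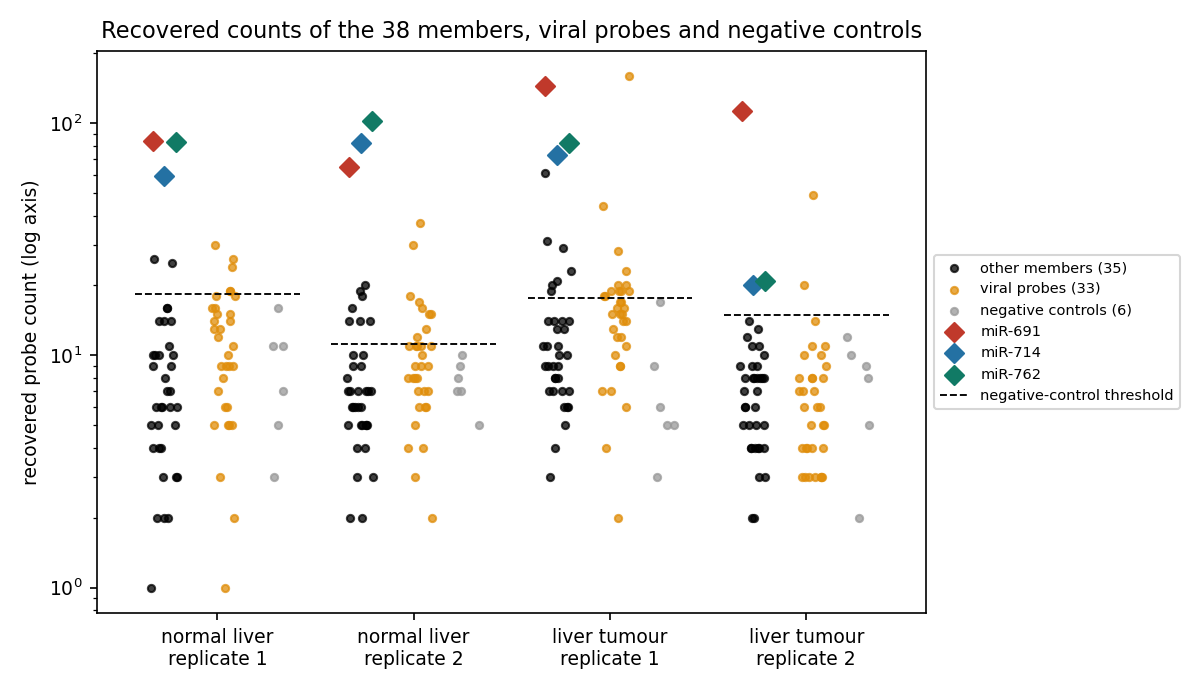
Recovered probe counts (log axis) of the 38 members, the 33 viral probes and the 6 negative controls in each of the 4 samples, with the sample's threshold as a dashed line. MiR-691, miR-714 and miR-762 stand above the line in every sample, with 20 and 21 counts for miR-714 and miR-762 in liver tumour replicate 2, while most other members lie among the viral probes.

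The 26 members above the negative controls in no sample spanned 1 to 11 and 2 to 10 counts in normal liver against 3 to 14 and 2 to 11 in tumour. Their medians were 6.0, 6.0, 8.5 and 5.0 counts, set against viral medians of 11.0, 9.0, 15.0 and 6.0 and negative-control medians of 9.0, 7.5, 5.5 and 8.5. In normal liver 25 and 22 of the 26 lay below the viral median of their sample, and in tumour 26 and 14 did. These members were miR-680, miR-681, miR-684, miR-686, miR-687, miR-688, miR-692, both arms of miR-693, miR-694 to miR-698, miR-700, miR-702, miR-703, miR-704, miR-706, miR-707, miR-711, miR-712, miR-715, miR-717, miR-718 and miR-719. The list holds miR-696, which represses PGC-1α in mouse muscle, miR-687, induced in the injured mouse kidney, and miR-712, from the precursor of ribosomal RNA. A presence of any of them was not detectable at this depth, which does not show absence.

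MiR-762 was lower in the tumours after scaling, both as a share of counts and in the deposited values. Its recovered counts themselves were 83 and 102 in normal liver against 82 and 21 in tumour, where the groups lie 1 count apart, and the tumours were counted more deeply. It took 0.122% (Wilson 95% interval 0.0981 to 0.151) and 0.164% (0.135 to 0.20) of miRNA counts in normal liver, and 0.0342% (0.0276 to 0.0425) and 0.017% (0.0111 to 0.0259) in tumour. These intervals cover counting error only, and those of the tumours lie below those of the normal livers. The deposited values averaged 204 ± 43.2 in normal liver and 25.7 ± 9.46 in tumours (SD, n = 2 per group). On the log2(value + 1) scale the difference was -2.97 (SE 0.34, limma adjusted p = 0.00274), which is 7.83-fold lower on that scale. MiR-762 is known in the mouse heart for entering mitochondria and lowering the ND2 subunit of complex I.

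MiR-714 followed the same order of samples. Its counts were 59 and 82 in normal liver against 73 and 20 in tumour, or 0.0864% and 0.132% against 0.0305% and 0.0162% of miRNA counts. The counts themselves overlap between the groups through liver tumour replicate 1, whereas the shares do not. The deposited values averaged 156 ± 46.1 and 23.5 ± 7.59. The difference on the log2(value + 1) scale was -2.68 (SE 0.35, limma adjusted p = 0.00328), or 6.42-fold lower in tumours on that scale. The ratio of miR-762 to miR-714 within a sample, into which no scaling enters, was 1.41 and 1.24 in normal liver against 1.12 and 1.05 in tumour. The groups do not overlap, but 2 samples against 2 cannot give an exact permutation p below 0.333, the value found here (two-sided). In both tumours miR-762 and miR-714 lay below the highest viral probe, mghv-miR-M1-7-5p, at 159 and 49 counts. The viral probe mcmv-miR-M87-1 had 44 and 20 counts there, against 82 and 21 for miR-762 and 73 and 20 for miR-714. Against the mean plus 2 SD of the viral probes, 71.9 and 24.4 counts in the tumours, miR-762 and miR-714 were just above in liver tumour replicate 1 and below in liver tumour replicate 2. These limits include mghv-miR-M1-7-5p.

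MiR-691 also had a lower share of counts and lower deposited values in both tumours, but by less, and its counts were higher there. Its counts were 84 and 65 in normal liver, 113 in liver tumour replicate 2 and higher again in liver tumour replicate 1, so both tumours lay above both normal livers in counts. Among all mouse miRNA probes 39.0% had higher counts in both tumours, and 7 of 38 members did. As a share of miRNA counts miR-691 took 0.123% and 0.105% in normal liver against 0.0601% and 0.0913% in tumour. The deposited values were 175 and 149 against 56.9 and 102, or 162 ± 18.3 and 79.6 ± 32.1 on average, differing by -1.07 in log2 (SE 0.35, limma adjusted p = 0.0393), a call that was lost without either normal liver (adjusted p = 0.194 and 0.143) and without liver tumour replicate 1 (adjusted p = 0.15). With samples set to equal positive controls, which are synthetic RNAs added to each reaction, the difference was -0.06 (SE 0.50, adjusted p = 0.947), and on the counts edgeR's quasi-likelihood test gave -0.21 (adjusted p = 0.60). The SE of 0.50 was the same for every member tested under equal positive controls, so it does not measure the spread of miR-691 itself.

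Counts divided by the geometric mean of the positive controls show the contrast between the 3 miRNAs without the deposited factors. MiR-691 stood at 0.421 and 0.394 in normal liver against 0.362 and 0.422 in tumour, so its groups overlap. MiR-762 stood at 0.416 and 0.619 against 0.206 and 0.0785, and miR-714 at 0.295 and 0.498 against 0.183 and 0.0747, both without overlap. A lower level in both tumours was not particular to them. It also held for most of the members above the negative controls in no sample. These were miR-680, miR-684, miR-688, both arms of miR-693, miR-694, miR-697, miR-700, miR-703, miR-711, miR-712, miR-715, miR-717 and miR-719. For the other members above in no sample, such as miR-707, the groups overlapped. The share over all probes was not counted. The median log2 difference on this scale was -0.83 over the 33 viral probes and -0.26 over all 566 mouse miRNA probes. Within a sample, the ratio of miR-762 to miR-691 counts was 0.988 and 1.57 in normal liver against 0.569 and 0.186 in tumour, a mean of 1.28 ± 0.411 against 0.378 ± 0.271 (exact permutation p = 0.333, two-sided, the smallest 2 against 2 allow). The ratio of miR-714 to miR-691 was 0.702 and 1.26 against 0.507 and 0.177 (exact permutation p = 0.333, two-sided). Both ratios were lower in each tumour than in each normal liver, and stayed so after the mean negative control was subtracted.

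**Figure D2:**
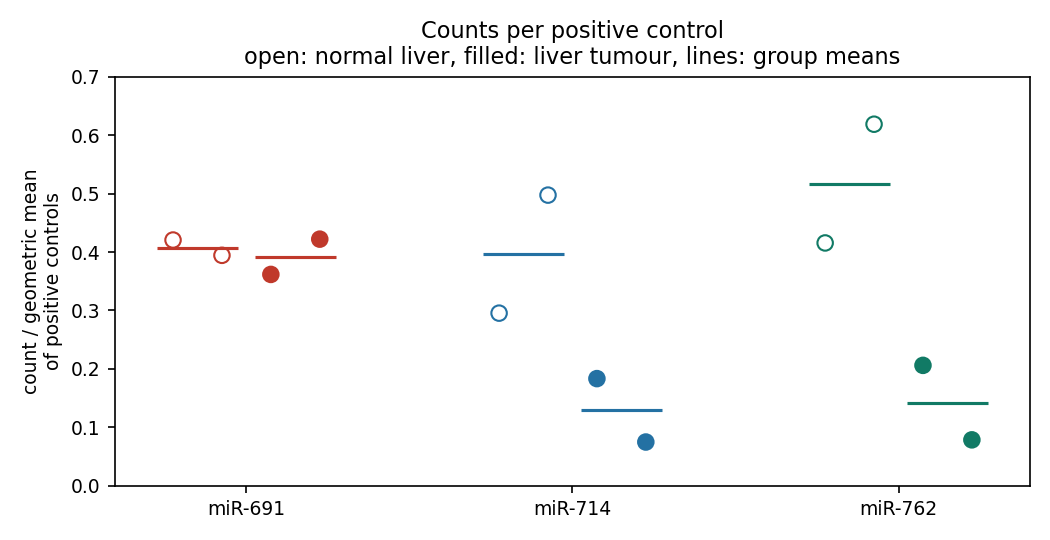
Recovered count divided by the geometric mean of the sample's 6 positive controls, for miR-691, miR-714 and miR-762 (open circles, normal liver; filled circles, liver tumour; lines, means of 2 samples). MiR-691 stays between 0.362 and 0.422 in all 4 samples, whereas the tumours lie below the normal livers for miR-714 and miR-762. They do so too for most of the members (not shown) above the negative controls in no sample.

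For the test across the panel, 276 mouse miRNAs were kept, those with a mean log2(value + 1) over 3.925, which is 2 SD above the mean of the negative controls on that scale. Of the 38 members 10 passed this filter, namely miR-683, miR-689, miR-690, miR-691, miR-701, miR-708, miR-709, miR-710, miR-714 and miR-762. In the deposited scaling limma called 9 of the 10 lower in the tumours, the exception being miR-701, against 46.7% of all kept miRNAs called lower and 7.97% called higher. The filter averages over all samples, and 7 of the 10, all but miR-691, miR-714 and miR-762, had a tumour mean under it and so were kept through their normal-liver values. These include 6 of the 9 calls, which the filter favoured, so the count of calls is a description. The same holds for 96 of the 276 kept miRNAs, of which 82 were called lower. Without normal liver replicate 2, 5 members were called. With the 33 viral probes added to the fit, an alternative chosen after seeing the data, limma called 27 of the 33 lower, with a median of -1.75. The call of a member as lower is thus shared by most probes for viral sequences under this scaling. On the deposited scale 33 of 38 members had lower values in both tumours than in both normal livers, as did 72.3% of mouse miRNA probes and 28 of 33 viral probes. Of the recovered counts themselves, 3 of 38 members were lower in both tumours, against a background of 3.71% and 3 of 33 viral probes. These members were miR-762, miR-683 and miR-693-3p, of which miR-693-3p had only 8 and 7 counts against 6 and 2 and was below every threshold.

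Other scalings left fewer members called. They were run on the same 10 members, kept by the filter on the deposited values. That filter favoured miR-683 and miR-710, so the counts of calls here are descriptions too. With the positive controls set equal, limma called 3 of 10 lower, miR-710, miR-714 and miR-762, against 3.62% of kept miRNAs called lower and 15.9% called higher, and the median over all kept miRNAs moved from -0.90 to 0.092. EdgeR on the recovered counts called miR-683, miR-710, miR-714 and miR-762 lower, 4 of 10, against 14.1% called lower and 25.7% called higher. With the viral probes added to its fit, edgeR called 11 of 33 viral probes lower, with a median of -0.97. The size of the difference moved with the scaling: miR-762 went from -2.97 to -1.96 (SE 0.50, adjusted p = 0.0017) with equal positive controls and to -2.06 in edgeR (adjusted p = 0.00147). MiR-714 went to -1.68 (SE 0.50, adjusted p = 0.00836) and to -1.80 in edgeR (adjusted p = 0.00394). With equal positive controls the SE of 0.50 was common to all 10 members tested, as limma pooled the variance over the kept miRNAs. The limma p-values under that scaling therefore do not measure the spread of each probe itself. Subtracting the mean negative control before scaling ended the limma calls of both (adjusted p = 0.0524 for miR-762 and 0.0609 for miR-714), at differences of -3.21 and -2.90. The part of the cell type markers, most of whose sums differed between the groups as given above, was not tested for either miRNA.

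**Figure D3:**
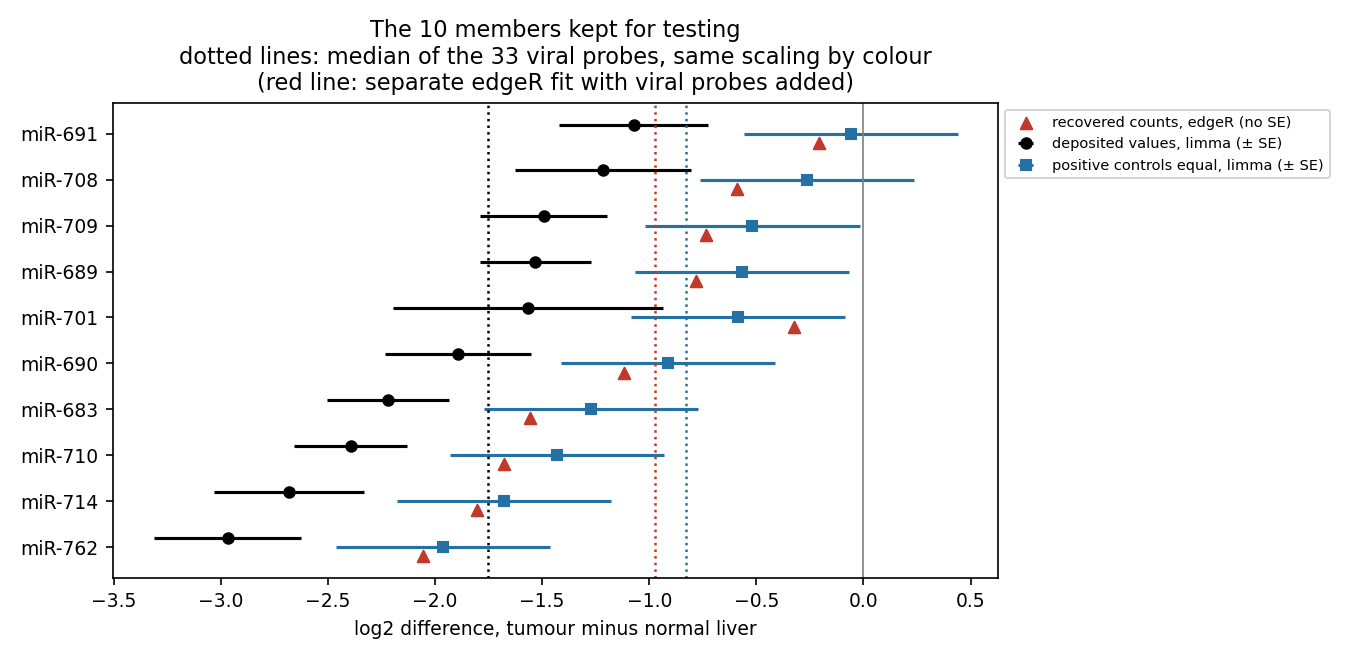
Log2 difference, tumour minus normal liver, of the 10 kept members in the deposited values (limma, bars are SE), with positive controls set equal (limma, bars are SE) and in edgeR on recovered counts; each dotted line is the median of the 33 viral probes under the scaling of its colour, taken for edgeR from a separate fit with viral probes added. MiR-762 and miR-714 lie furthest below the viral medians of -1.75, -0.83 and -0.97, and miR-691 lies above them in every setting. With positive controls set equal, the SE is 1 pooled value shared by all 10 members. MiR-683 was above the negative controls in neither tumour, so its plotted difference is not a measured size.

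MiR-710 and miR-690 passed the negative-control threshold in both normal livers but not in both tumours. The filter kept both for testing through their normal-liver values, so their calls and p-values below are descriptions. MiR-710 had 25 and 18 counts in normal liver against 20 and 9 in tumour, so the groups overlap in counts. It was below the threshold of 14.9 in liver tumour replicate 2. Its deposited values averaged 46.7 ± 7.64 and 8.03 ± 0.177, differing by -2.39 in log2 (SE 0.26, limma adjusted p = 0.00274), a size that rests on 1 of 2 tumours above the negative controls. It kept a call with equal positive controls (-1.43, adjusted p = 0.0272) and in edgeR (-1.68, adjusted p = 0.00828), and lost it under quantile normalization, in DESeq2 and with the negative controls subtracted (adjusted p = 0.0653, 0.0518 and 0.0661). Of the viral probes 5 likewise passed the threshold in each normal liver, and limma called 4 of them lower. Of these 4, mcmv-miR-m107-1-5p was above in neither tumour, and mcmv-miR-m01-3, mcmv-miR-m21-1 and mcmv-miR-M87-1 differed by -2.60, -1.94 and -1.73, 1 more and 2 less negative than miR-710. The fifth, mghv-miR-M1-7-5p, differed by -0.46 and was not called. MiR-690 had 26 and 14 counts in normal liver against 31 and 10 in tumour, so the groups overlap in counts. Its deposited values averaged 43.2 ± 15.6 and 10.7 ± 2.26 (log2 difference -1.89, SE 0.34, limma adjusted p = 0.00568), again with 1 of 2 tumours above the negative controls, and it was not called with equal positive controls (adjusted p = 0.176) or in edgeR (adjusted p = 0.0584).

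MiR-683, miR-689, miR-708 and miR-709 were called lower by limma with counts at or near the thresholds. They too were kept for testing through their normal-liver values, so their calls and p-values are descriptions. MiR-683 had 16 and 16 counts in normal liver against 14 and 9 in tumour and was above the negative controls in normal liver replicate 2 alone, so no size of difference is given (adjusted p = 0.00324). MiR-689 had 14 and 14 counts against 23 and 12, and miR-709, the nuclear regulator of miR-15a/16-1 processing, 14 and 19 against 29 and 14. Each of these was above the threshold in normal liver replicate 2 and liver tumour replicate 1, and limma called both lower on the deposited values (adjusted p = 0.00419 and 0.0077) although the higher count of each lay in a tumour. MiR-708, which lies inside the span of Tenm4 and shares its 5′ arm seed AGGAGCU with miR-28a-5p, had 16 and 7 counts against 19 and 13 and was above the threshold in liver tumour replicate 1 alone (adjusted p = 0.0442). None of miR-689, miR-708 and miR-709 was called with equal positive controls (adjusted p = 0.427, 0.748 and 0.472) or in edgeR (adjusted p = 0.102, 0.307 and 0.149), and the difference of miR-708 turned positive, to 0.17, under quantile normalization. MiR-683 was called in edgeR (adjusted p = 0.0102) and not with equal positive controls (adjusted p = 0.0522). The limma calls of miR-689 and miR-709 were lost without normal liver replicate 2, and that of miR-708 without either normal liver or without liver tumour replicate 1.

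MiR-701, miR-682 and miR-713 completed the members above the negative controls somewhere, and are named here after their values were seen. MiR-701 had 14 and 20 counts in normal liver against 61 and 6 in tumour, so the highest and the lowest count both came from tumours (limma adjusted p = 0.0737). MiR-713 had 4 and 8 against 21 and 8 counts and passed in liver tumour replicate 1 alone, and miR-682 had 10 and 14 against 11 and 11 and passed in normal liver replicate 2 alone. For miR-713 and miR-682, which did not pass the filter on low values, no fit is given.

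Summed over all 38 members, and after subtraction of the mean negative control for each probe, the run took 0.284% and 0.414% of miRNA counts in normal liver against 0.20% and 0.0859% in tumour. The mean was 0.206 percentage points lower in the tumours (exact permutation p = 0.333, two-sided, the smallest 2 samples against 2 allow). Both tumours lay below both normal livers. The difference, tumour minus normal, was -0.488 percentage points without the subtraction (0.755% and 0.854% against 0.315% and 0.318%) and -0.38 without miR-720 and miR-122 in the total, the groups again not overlapping. MiR-691, miR-714 and miR-762 alone took 0.315% and 0.392% against 0.117% and 0.11%, and the other 35 members -0.0319% and 0.022% against 0.0826% and -0.0237%, where a negative share is a sum below that of the negative controls. Divided by the positive controls instead, the summed level was 0.898 and 1.45 in normal liver against 1.18 and 0.384 in tumour, so those groups overlap (exact permutation p = 0.667).

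Base composition is known for 25 members with 1 exact sequence, which ranged from 33.3% to 81.8% G and C and do not include miR-714. MiR-762 had the highest content, at 81.8%, and miR-691 was at 40.9%. MiR-718, next to miR-762 at 81.0%, was above the negative controls in no sample. Of the 6 members at 60% or more, miR-762 was the 1 above them in both samples of a group. Over all 38 members 5 were, or 13.2%. So few probes cannot relate base content to detection.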

How the data were processed

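Total RNA of 2 samples of normal mouse liver and 2 samples of liver tumour was measured with the nCounter miRNA Expression Assay, per the labels' protocols. The labels do not say whether the samples of a group come from separate mice. The deposited values are signal values, which the authors made by multiplying whole probe counts by 1 factor per sample. The software and the rule for that factor were not given in the sources used here. Control probes were left unscaled. Counts were recovered by dividing by the step found in each sample (100% of scaled values whole within 0.1 count). The members and the lists compared were chosen with earlier results of these data known.

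Detection used the mean plus 2 SD of the 6 negative controls. The main test was limma 3.58.1, two-sided and with eBayes, on log2(value + 1), tumour minus normal, with Benjamini-Hochberg adjustment over the 276 kept miRNAs and a threshold of 0.05. Members described were those above the negative controls in both samples of a group or called by the fit. Alternatives were other scalings, edgeR 4.0.16 and DESeq2 1.42.0 on recovered counts, pseudocounts of 10 and 30, other filters and background treatments, the replicate number as a block, and each sample left out. Samples of a group differed beyond sampling noise (chi-square 3.24 per probe for normal livers and 34.1 for tumours, over probes with 20 or more counts) and were counted separately. Hairpins were folded with RNAfold 2.7.2; sequences and positions are from RefSeq.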

Additional observations from a re-analysis of the deposited data

Results flagged for a closer look

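The probe mghv-miR-M1-7-5p, for a miRNA of a mouse herpesvirus, had 30 and 37 counts in normal liver against 159 and 49 in tumour. It was above the negative controls in every sample and higher in both tumours than in both normal livers, although it is used here as part of the background. In the limma fit with viral probes its difference on the deposited scale was -0.46 (adjusted p = 0.253).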

How the results depend on the processing

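The number of members called, 9 in the deposited scaling, was 7 with equal totals, 10 and 8 with pseudocounts of 10 and 30, 10 with counts raised to the detection threshold, 3 with equal positive controls, 5 with equal medians, 2 with quantile normalization, 4 in edgeR (also 4 with viral probes in its fit) and 2 in DESeq2. It was 1 with negative controls subtracted, 25 of 38 with no filter, and 5 or 3 where only members above the negative controls or the viral probes in both samples of a group were tested. With 1 sample left out it was 5 to 9. Where the main filter was used it favoured 7 of the 10 members tested, so these counts of calls are descriptions. MiR-714 and miR-762, not among those 7, kept their calls in 19 of 20 settings each, the exception being subtraction of the negative controls. MiR-708 turned to 0.17 under quantile normalization (adjusted p = 0.804). Members above background in all 4 samples, 3 by the negative controls, numbered 1 by the mean plus 2 SD of the viral probes and 0 by the highest viral probe, and 3 to 5 with a sample left out. The highest viral probe was mghv-miR-M1-7-5p in every sample. In both normal livers the 5 became 3 by either viral limit, and 5 to 10 with a sample left out. In both tumours the 3 became 5 by the highest negative control, 1 and 0 by the viral limits, and 3 to 10 with a sample left out. The causes were not tested. The replicate number as a block gave 10 calls; same-numbered samples' deviations correlated at 0.042, so the numbers were not taken to pair the samples. Depth limits members near the thresholds, where a few counts decide detection. The summed share fell by 0.14 to 0.271 percentage points with a sample left out.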
